A study of Mus musculus with 8 samples.

Results

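Rap1A and Rap1B, 2 closely related small GTPases, and 8 proteins that switch them or act with them were followed at the transcript level in cultured group 2 innate lymphoid cells (ILC2s), lymphocytes of barrier tissues that make type 2 cytokines. The 10 genes were Rap1a and Rap1b, the exchange factor genes Rapgef1, Rapgef2, Rapgef6, Rasgrp1 and Rasgrp2, the inhibitor gene Sipa1 and the effector genes Apbb1ip and Rassf5, out of 25367 genes in the deposited table. The list was chosen from earlier results of the same comparison of counts between the treatments, so the treatment values of the 10 genes are a description. Counts of these genes past the threshold of a fit over all genes are printed beside the share of all genes and support nothing. The genes past a threshold are named, but no treatment p-value is printed for any of the 10. All 10 genes were found through their gene identifiers, and all 10 passed the filter on low counts that left 15095 genes.

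Leukotriene B4 is made by leukotriene A4 hydrolase, and SC-57461A blocks this enzyme. ILC2s sorted from the large intestine of WT C57BL/6 mice spent 5 days in medium that held IL-33, IL-25, IL-7 and IL-2 (10 ng/mL of each cytokine) and then received SC-57461A (4 libraries) or vehicle (4 libraries) for 16 hours. All libraries therefore came from cytokine-expanded wild-type cells. The sources used here give no dose of SC-57461A, and neither the age nor the sex of the mice. They do not say whether libraries of a group came from separate mice or cultures, so p-values measure only how much these libraries vary, and that variation may be technical.

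Rap1 proteins bind GTP in their active state and GDP in their inactive state. Exchange factors load them with GTP, GTPase-activating proteins such as SIPA1 return them to the GDP state, and in lymphocytes GTP-bound Rap1 recruits effectors that increase integrin-mediated adhesion. Rap1 effectors and talin act together on the integrin LFA-1, encoded by Itgal and Itgb2.

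The libraries held 47376196 to 52564876 counts with SC-57461A and 50313937 to 71155654 counts with vehicle. They fell into 2 sets that crossed the treatments, recognised by the summed FPKM of each library and not named in the labels. FPKM are fragments scaled to gene length and library size, a level per length. Set A held SC-57461A replicates 2 and 3 and vehicle replicates 1 and 2 (summed FPKM 390628 to 428541), and set B held SC-57461A replicates 1 and 4 and vehicle replicates 3 and 4 (316414 to 336044). The sets parted on the first principal component, with 61.2% of the variance, and the treatments on the second, with 10.2%. Fold changes of the 10 genes are therefore given over all libraries (pooled) and in a model that also holds the library set (set-adjusted), and those of other named genes set-adjusted. The 14 ILC2 marker genes, among them Gata3 and Il1rl1, summed to 20569 to 23976 CPM (counts scaled to library size) with SC-57461A and to 18274 to 22466 CPM with vehicle. Within each set the SC-57461A sums were the higher ones, at 22817 and 23976 against 22466 and 21458 CPM with vehicle in set A, and at 20569 and 21285 against 18812 and 18274 CPM with vehicle in set B. In the set-adjusted fit Id2, Il2ra and Il5 were called higher and Gata3 lower. The 8 myeloid markers summed to 30.0 to 51.8 CPM in set A and 6.04 to 8.11 CPM in set B, where Lyz2, S100a8, S100a9 and Csf1r were at 0. The 8 T cell markers summed to 63.0 to 84.8 CPM in set A and 34.6 to 42.0 CPM in set B. Over all libraries the 6 platelet markers summed to 0.786 to 2.84 CPM and the 5 endothelial markers to 72.0 to 81.7 CPM. In set B the endothelial sum was the level of Pecam1 alone. The 6 stromal markers summed to 4.16 to 15.9 CPM in set A and 0.920 to 2.84 CPM in set B. In set A the 7 epithelial markers summed to 37.3 and 42.2 CPM with SC-57461A and to 15.0 and 23.1 CPM with vehicle, and in set B to 8.89 and 12.8 CPM with SC-57461A and to 15.7 and 13.6 CPM with vehicle. The set-adjusted fit called Krt8, Krt19 and Muc2 higher. Also at 0 in set B were Krt8, Krt19, Cdh1, Cdh5, Kdr, Tek, Cldn5, Col3a1, Dcn, Pf4, Cd8a and Cd8b1. The part of these cells in the values below was not tested.

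Both GTPases were among the most abundant transcripts of these cells per length. Rap1b (ENSMUSG00000052681, chromosome 10, 117814471 to 117845935, minus strand, mm10) averaged 206 ± 50.3 FPKM with SC-57461A and 211 ± 39.2 FPKM with vehicle (SD, n = 4 each). Rap1a (ENSMUSG00000068798, chromosome 3, 105727267 to 105801330, minus strand) averaged 102 ± 39.9 FPKM with SC-57461A and 98.0 ± 38.8 FPKM with vehicle (SD, n = 4 each). Rap1b lay above 98.9% and Rap1a above 97.7% of genes with a value, and Rap1b was above Rap1a in 8 of 8 libraries.

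The coding sequences of the 2 GTPases are shown because they are so alike. Both are 555 bases long in the GENCODE M21 transcripts (the longest open reading frame), with 453 identical and 102 different bases, an identity of 81.6%. In the first 120 coding bases, printed here 5′ to 3′, capitals mark the 17 bases that differ.
Rap1a: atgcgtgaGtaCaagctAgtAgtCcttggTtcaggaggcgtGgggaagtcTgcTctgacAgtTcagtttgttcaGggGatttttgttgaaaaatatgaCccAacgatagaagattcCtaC
Rap1b: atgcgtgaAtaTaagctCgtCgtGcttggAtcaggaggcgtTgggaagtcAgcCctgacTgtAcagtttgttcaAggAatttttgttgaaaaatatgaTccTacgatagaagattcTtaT
A pseudogene transcript, Gm9392, matches Rap1a at 98.6% over 554 bases and was counted 284 to 851 times per library, against 8543 to 24321 counts for Rap1a. The sources used here do not say how the counting treated reads that match both, so how far this affects the Rap1a level is not known.

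With SC-57461A, Rap1a had 172, 351, 435 and 185 CPM in replicates 1 to 4, against 396, 342, 188 and 146 CPM with vehicle. The groups overlapped, and in both the 2 high libraries were those of set A. Rap1b had 540.0, 383, 410 and 553 CPM in SC-57461A replicates 1 to 4, against 443, 435, 575 and 446 CPM in vehicle replicates 1 to 4. The highest Rap1b values were in set B, and the treatments overlapped.

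Neither GTPase differed between treatments by more than its standard error, pooled or set-adjusted. The log2 fold change of SC-57461A over vehicle was 0.09 ± 0.40 (SE) for Rap1a pooled and 0.09 ± 0.10 set-adjusted. For Rap1b it was -0.01 ± 0.16 pooled and -0.02 ± 0.09 set-adjusted, with -0.14 within set A and 0.09 within set B. In bulk RNA, fewer cells of a type and less RNA per cell cannot be told apart, here and in every value that follows.

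The balance of the 2 GTPases differed between the library sets. The Rap1b to Rap1a ratio of FPKM was, in set A, 1.30 and 1.12 with SC-57461A, against 1.33 and 1.51 with vehicle. In set B it was 3.72 and 3.55 with SC-57461A, against 3.63 and 3.61 with vehicle. The sets did not overlap in this ratio, and within each set the treatments differed by far less than the sets did. The summed FPKM of both genes ranged from 283 to 319 in SC-57461A libraries and from 265 to 341 in vehicle libraries.

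**Figure D1:**
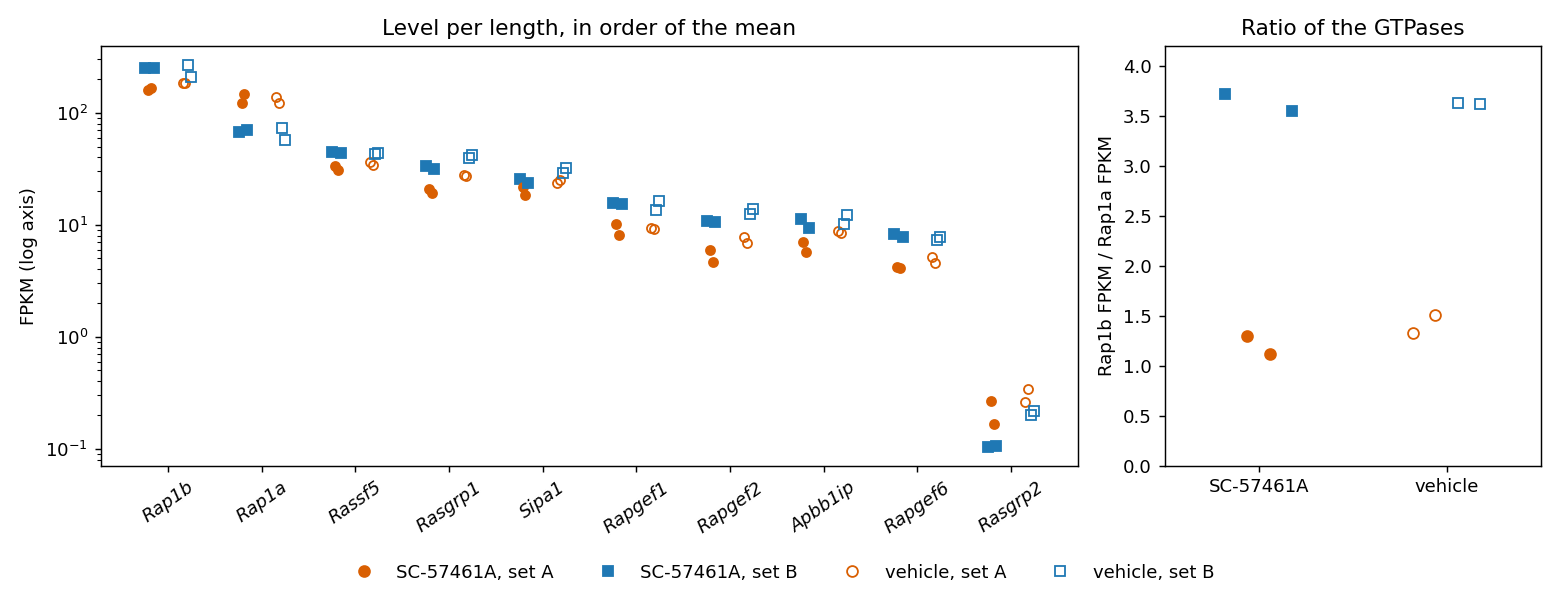
FPKM of each Rap1 gene in the 8 libraries on a log axis, and the Rap1b to Rap1a ratio of FPKM in each library, with SC-57461A left of vehicle and library sets shown by colour and shape. Rap1b and Rap1a lie highest, Rasgrp2 lowest at 0.104 to 0.338 FPKM, and the ratio lies at 1.12 to 1.51 in set A and 3.55 to 3.72 in set B.

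Set B over set A, the log2 difference was -1.14 ± 0.10 (SE) for Rap1a and 0.34 ± 0.09 for Rap1b. Across all genes this difference followed transcript length, with a median of -0.60 for transcripts under 1000 bases and 0.26 for those of 5000 bases and more. Rap1a (2407 bases) and Rap1b (2724 bases) belong to the same class of 2000 to 3000 bases, whose median was -0.06. In that class 6.47% of genes lay below Rap1a and 87.6% lay below Rap1b.

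The genes whose pattern over the 8 libraries was most like that of Rap1a, after the mean of each library set was removed, were Anp32e, Cdkn2aipnl and Pdcd10, each with Pearson r = 0.97 on log2 CPM among 8753 genes. For Rap1b they were 4930503L19Rik, mt-Rnr1 and Hnrnph1, each with r = 0.98. The r between Rap1a and Rap1b was 0.65. These are descriptions over 8 libraries that share the library sets and differ in depth.

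Among the exchange factors, Rasgrp1 and Rapgef2 were lower with SC-57461A within both library sets, Rasgrp2 was lower at a low count, and Rapgef1 and Rapgef6 were close to level. RASGRP1 is activated by diacylglycerol and is an exchange factor of Ras, listed here with those of Rap. Among the Rap1 genes followed here, Rasgrp1 alone is not marked with the KEGG Rap1 signaling pathway. RAPGEF2 and RAPGEF6 are exchange factors with PDZ domains, RAPGEF1 binds CRK adaptors, and RASGRP2 (CalDAG-GEFI) responds to calcium and is best known from platelets. The median log2 fold change of the 5 genes was -0.32 pooled and -0.35 set-adjusted, against 0.01 and 0.00 over all 15095 genes.

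Rasgrp1 (ENSMUSG00000027347, chromosome 2, 117279993 to 117343001, minus strand) had 200.2, 139, 133 and 193 CPM in SC-57461A replicates 1 to 4, against 185, 180.1, 233 and 248 CPM in vehicle replicates 1 to 4. Over all libraries the groups overlapped through SC-57461A replicates 1 and 4. Within set A the SC-57461A libraries (139 and 133) lay below the vehicle libraries (185 and 180.1), and within set B likewise (200.2 and 193 against 233 and 248). The log2 fold change was -0.35 ± 0.18 (SE) pooled and -0.36 ± 0.06 set-adjusted, a set-adjusted level 22.0% lower, with -0.42 in set A and -0.29 in set B. Rasgrp1 and Rassf5 had the smallest spreads of the 10 genes between libraries of the same treatment and set. Their SDs on log2 CPM were 0.046 and 0.048.

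Rapgef2 (ENSMUSG00000062232, chromosome 3, 79062516 to 79181340, minus strand) had 163, 99.6, 79.5 and 165 CPM in SC-57461A replicates 1 to 4, against 129.7, 113, 185 and 207 CPM in vehicle replicates 1 to 4. The pooled groups overlapped, and within each set both SC-57461A libraries lay below both vehicle libraries. The log2 fold change was -0.32 ± 0.29 (SE) pooled and -0.35 ± 0.09 set-adjusted, with -0.43 in set A and -0.26 in set B. Its level was higher in set B by a log2 difference of 0.78 ± 0.09, which exceeded its difference between treatments.

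Promoter sequence of these 2 genes is shown because they were the exchange factors whose SC-57461A libraries lay below the vehicle libraries within both sets. The printed bases come from the 250 bases before a start in RefSeq on GRCm38.p6, the mm10 assembly, 5′ to 3′ on the minus strand. Within these 250 bases they are those before the first GENCODE M21 exon met. They are 126 bases at chr2:117343002-117343127 for Rasgrp1 and all 250 at chr3:79145876-79146125 for Rapgef2. The Rapgef2 stretch met no exon, but it lies inside the gene as GENCODE annotates it, downstream of the gene's start. Rapgef2 has another RefSeq start inside the gene, and the 121 bases before the exon met there lie within the printed stretch. The Rasgrp1 start also lies inside its gene. Capitals mark a motif match.
Rasgrp1: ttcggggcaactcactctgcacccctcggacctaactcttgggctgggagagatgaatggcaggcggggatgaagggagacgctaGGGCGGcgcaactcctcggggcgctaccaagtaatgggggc
Rapgef2: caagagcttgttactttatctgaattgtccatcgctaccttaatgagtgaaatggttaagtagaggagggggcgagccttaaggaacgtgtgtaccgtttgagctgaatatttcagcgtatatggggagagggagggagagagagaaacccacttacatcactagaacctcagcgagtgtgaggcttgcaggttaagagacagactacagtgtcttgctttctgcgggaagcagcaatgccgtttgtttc
Searched in the full 250 bases on both strands were the GC box GGGCGG, the ETS core CCGGAAG, the cAMP response element TGACGTCA, the AP-1 site TGACTCA, the EGR site GCGTGGGCG, the sterol element TCACNCCAC and the E-box CACGTG. The GC box and the EGR site can overlap each other. Rasgrp1 held 1 GC box, a motif in 32.7% of the 32851 promoters searched and in 6 of the 9 member genes with an entry. The ETS core, in 6.91% of all promoters, was in those of Rapgef6 and Rasgrp2, and the cAMP response element, in 1.55%, was in that of Rap1b. The AP-1 site (4.46% of all promoters), the EGR site (0.536%), the sterol element (1.05%) and the E-box (6.02%) were in none of the 9. Rap1a was the gene without an entry.

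Rapgef1 (ENSMUSG00000039844, chromosome 2, 29619720 to 29740363, plus strand) had 124, 89.7, 72.9 and 125 CPM in SC-57461A replicates 1 to 4, against 81.7, 80.1, 107 and 127 CPM in vehicle replicates 1 to 4. Rapgef6 (ENSMUSG00000037533, chromosome 11, 54522847 to 54699285, plus strand) had 114, 64.3, 64.9 and 110.0 CPM in SC-57461A replicates 1 to 4, against 79.3, 69.3, 101 and 107 CPM in vehicle replicates 1 to 4. In both genes the set B libraries were the high ones, and the treatments overlapped. The log2 fold change of Rapgef1 was 0.05 both pooled and set-adjusted, and that of Rapgef6 was -0.01 pooled and -0.05 set-adjusted. For Rapgef6 the sign differed by set, with -0.20 in set A and 0.10 in set B. A pseudogene, Gm9823, lies inside Rapgef1 on the opposite strand and matches it at 98.8%, and was not analysed here.

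Rasgrp2 (ENSMUSG00000032946, chromosome 19, 6399340 to 6415216, plus strand) was the least abundant of the 10, with 70 to 191 counts in SC-57461A libraries and 156 to 245 counts in vehicle libraries. It had 1.41, 4.04, 2.56 and 1.51 CPM in SC-57461A replicates 1 to 4, against 3.94, 4.99, 2.72 and 2.98 CPM in vehicle replicates 1 to 4. The groups overlapped, and both SC-57461A libraries of set B were below all others. The log2 fold change was -0.62 ± 0.37 (SE) pooled and -0.69 ± 0.20 set-adjusted, with -0.43 in set A and -0.96 in set B. Rasgrp2 and Rap1a were the 2 genes with higher levels in set A. The 8 myeloid markers also summed higher in set A, as given above. In set A the 6 platelet markers summed to 2.84 and 2.34 CPM with SC-57461A and to 1.82 and 1.79 CPM with vehicle. In set B they summed to 0.907 and 0.786 CPM with SC-57461A and to 1.66 and 1.72 CPM with vehicle. The part of myeloid cells and platelets in the Rasgrp2 level was not tested.

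Sipa1 (ENSMUSG00000056917, chromosome 19, 5651185 to 5663707, minus strand), which encodes a GTPase-activating protein that turns Rap1 off, was the one gene of the 10 whose treatments did not overlap in CPM. It had 106, 101, 87.8 and 101 CPM in SC-57461A replicates 1 to 4, against 107, 114, 119 and 132 CPM in vehicle replicates 1 to 4. The gap between SC-57461A replicate 1 and vehicle replicate 1 was small, and in FPKM these groups overlapped, with 18.5 to 25.7 FPKM for SC-57461A and 23.4 to 32.2 FPKM for vehicle. The log2 fold change was -0.25 ± 0.11 (SE) pooled and -0.25 ± 0.07 set-adjusted, with -0.23 in set A and -0.28 in set B. Of all genes tested, 3.13% had every SC-57461A library below every vehicle library and 3.01% had every one above.

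The effectors are the adaptor RIAM, encoded by Apbb1ip, which links Rap1 to talin, and RASSF5 (RAPL in its lymphocyte form), which binds active Rap1 and MST kinases. Apbb1ip (ENSMUSG00000026786, chromosome 2, 22774094 to 22875653, plus strand) had 89.3, 61.2, 52.4 and 76.9 CPM in SC-57461A replicates 1 to 4, against 76.8, 72.8, 79.7 and 95.9 CPM in vehicle replicates 1 to 4. The SC-57461A libraries were below vehicle in set A, and the treatments overlapped in set B. Its log2 fold change was -0.22 ± 0.18 (SE) pooled and -0.24 ± 0.10 set-adjusted, with -0.39 in set A and -0.08 in set B.

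Rassf5 (ENSMUSG00000026430, chromosome 1, 131176410 to 131245258, minus strand) had 182, 153, 144 and 183 CPM in SC-57461A replicates 1 to 4, against 165, 154, 176 and 178 CPM in vehicle replicates 1 to 4. The groups overlapped, and the log2 fold change was -0.02 ± 0.11 (SE) pooled and -0.03 set-adjusted, with -0.10 in set A and 0.04 in set B. Both SC-57461A libraries lay below both vehicle libraries in set A and above them in set B. Rassf5 overlaps Eif2d, counted up to 4466 times in a library, on the opposite strand, and the sources used here name no strand setting for the counting, so reads of these genes may not be fully separated.

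**Figure D2:**
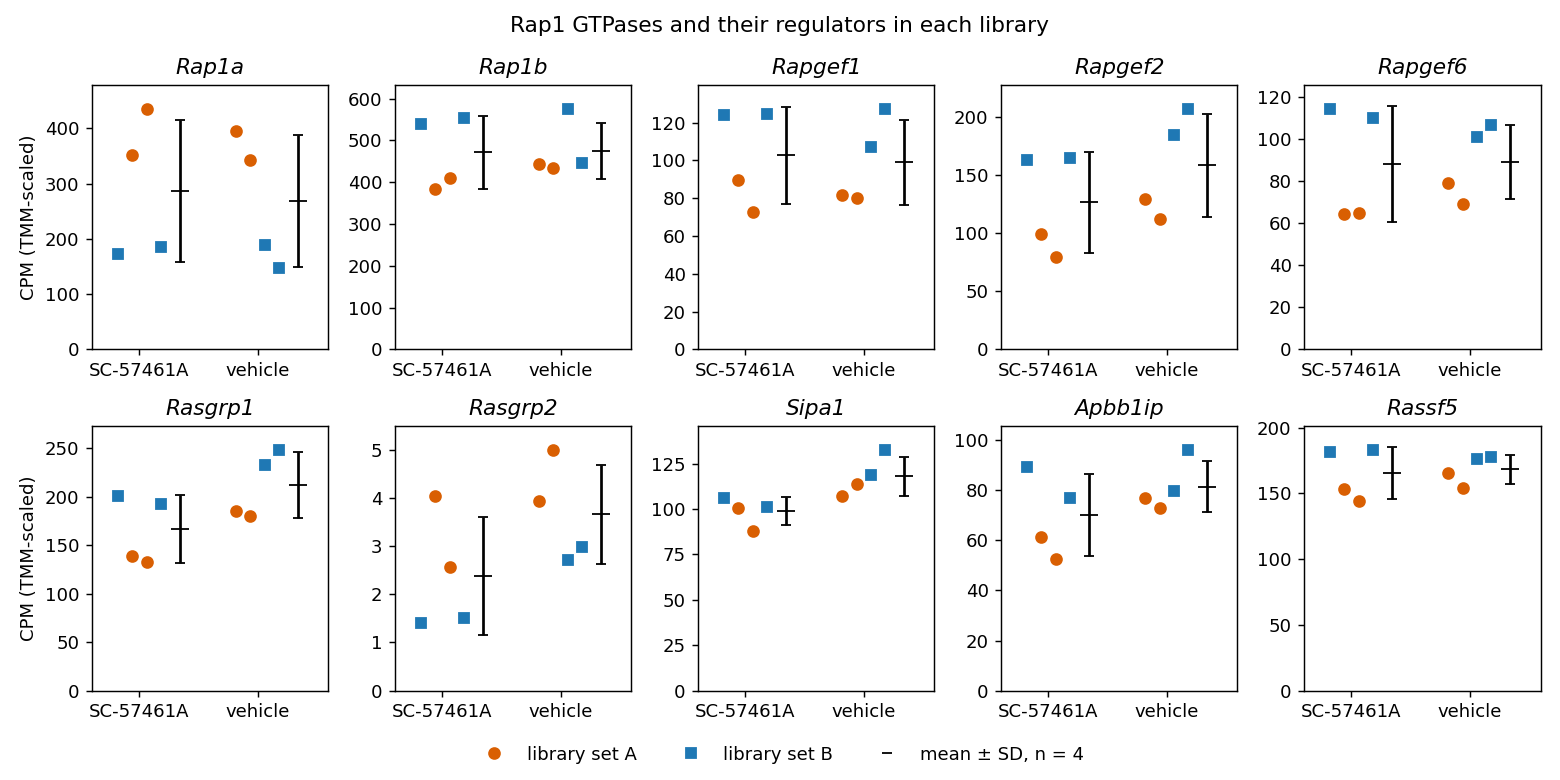
CPM scaled by TMM of the 10 Rap1 genes in each library, with SC-57461A left of vehicle, circles for library set A, squares for set B, and bars for the mean ± SD (n = 4). The library sets part within each treatment for most genes, and Rasgrp1, Rapgef2 and Sipa1 are lower with SC-57461A within both sets.

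Per length, the order of the mean level over the 8 libraries was Rap1b (208 FPKM), Rap1a (100.1), Rassf5 (38.7), Rasgrp1 (30.2), Sipa1 (24.9), Rapgef1 (12.2), Rapgef2 (9.13), Apbb1ip (9.11), Rapgef6 (6.16) and Rasgrp2 (0.207). Neighbours in this order kept their order in 8 of 8 libraries, except that Rasgrp1 was above Sipa1 in 7 of 8 and Rapgef2 was above Apbb1ip in 3 of 8, a pair that did not differ beyond its spread.

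Pooled, edgeR's quasi-likelihood test with Benjamini-Hochberg adjustment over 15095 genes called 0 of the 10 genes at an adjusted p of 0.05, where 0.331% of all genes (41 higher and 9 lower) were called. The count is 1 of 10, Sipa1, at an unadjusted p under 0.05, beside 1008 of all 15095 genes. By DESeq2 it is 0 of 10, beside 148 higher and 87 lower among all genes. The pooled log2 fold change was negative in 8 of 10, with a median of -0.12. With library set as a term, 2 of 10 were called lower, Rasgrp1 and Rapgef2, and 0 higher, where 2.5% of all genes were called lower and 2.83% higher. Nothing is read from these counts, since the same comparison chose the genes. Rapgef2 was called in 2 of the 8 set-adjusted fits that left out 1 library, without SC-57461A replicate 2 and without vehicle replicate 3. It was not called without any of the other 6 libraries. Rasgrp1 was called lower in 8 of these 8 fits, and Rasgrp2 and Sipa1 in 1 each, without SC-57461A replicate 2. Nothing is read from these counts either.

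Within each library set, both SC-57461A libraries lay below both vehicle libraries for 3 of the 10 genes, Rasgrp1, Rapgef2 and Sipa1, where 10.3% of all genes did so. Whether the response differed between the sets was tested with a treatment by library set term. It called 0 of the 10 genes and 0.00662% of all genes, which is 1 gene, 2610206C17Rik. At an unadjusted p under 0.05 it picked 1 of the 10, Rapgef6 (adjusted p = 0.908), and 749 of all genes. For 9 of 10 genes the difference between library sets exceeded the difference between treatments, Sipa1 being the exception.

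**Figure D3:**
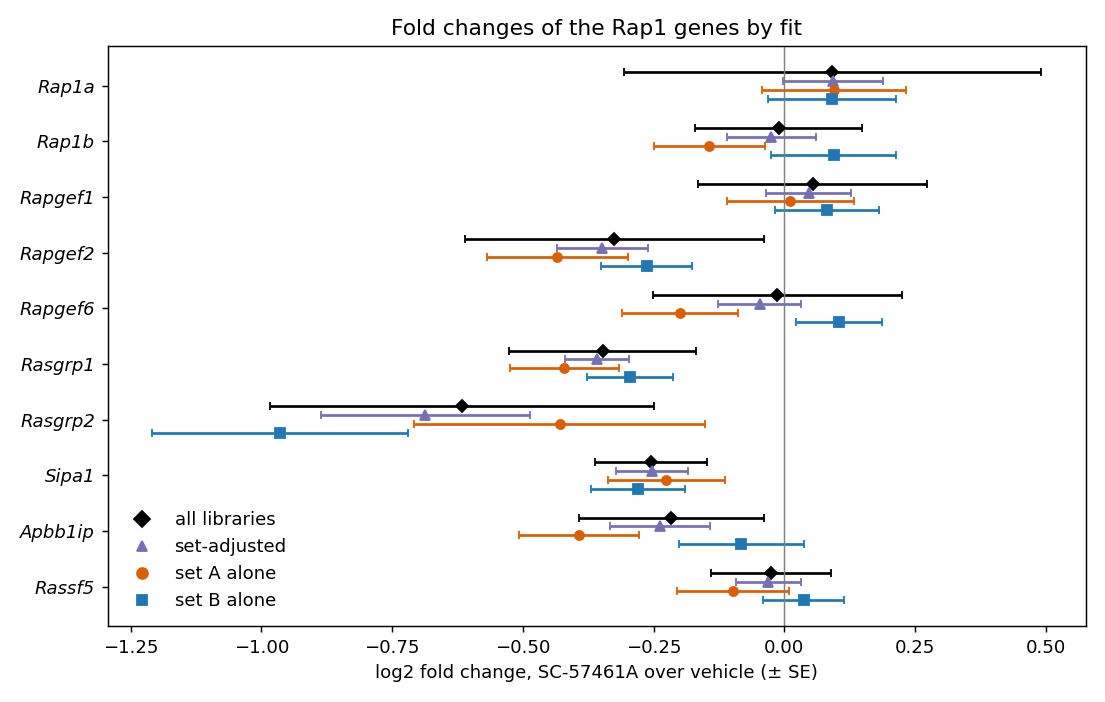
Log2 fold change of SC-57461A over vehicle for the 10 Rap1 genes, pooled, with library set as a term and within each set, with bars for the standard error. Rasgrp1, Rapgef2, Sipa1, Rasgrp2 and Apbb1ip are negative in both sets, and the bars are shorter with library set as a term.

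Other genes of the pathway were read from 4 lists by role: other Rap GTPases and switches, genes upstream of the exchange factors, other Rap1 effectors with the MST kinase arm, and integrin activation. Of their 73 genes, 70 were tested. Pooled, none of the 70 was called by edgeR (lowest adjusted p = 0.368). An unadjusted p under 0.05 was found for 7 of the 70, beside 1008 of all 15095 genes. DESeq2 called 1 of the 70 lower, Fyb, beside 148 higher and 87 lower among all genes. With library set as a term, 10 fell and 0 rose, beside the 2.5% of all genes called lower and the 2.83% called higher in that fit. The 4 lists were chosen with earlier results of these data known, so these counts are a description and support nothing. The median log2 fold change of the 70 was -0.11 pooled and -0.12 set-adjusted, with 53 of 70 and 52 of 70 negative, against medians of 0.01 and 0.00 over all genes. By list the pooled median was -0.20 for other GTPases and switches, -0.14 for genes upstream, -0.11 for other effectors and -0.01 for integrin activation. The p-values that follow are those of edgeR with library set as a term, adjusted over all genes. Apart from genes named in every case, the genes named from each list were picked for a small p in these data. Their p-values therefore describe these libraries and are no independent test of the pathway.

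Among other GTPases and switches, 2 of 17 tested genes fell and 0 rose. Rasgrp4, another diacylglycerol-responsive exchange factor of the RASGRP family, had 46.6, 40.2, 35.4 and 44.7 CPM in SC-57461A replicates 1 to 4, against 50.9, 52.0, 55.6 and 62.3 CPM in vehicle replicates 1 to 4. Every SC-57461A library was below every vehicle library, and the log2 fold change was -0.41 ± 0.07 (SE; adjusted p = 0.00825). Sipa1l1, a GTPase-activating protein related to SIPA1, averaged 129.7 ± 32.3 CPM with SC-57461A and 177 ± 48.3 CPM with vehicle (SD, n = 4 each), a log2 fold change of -0.45 (adjusted p = 0.0102). Rapgef5 (-0.75) and Rasa3 (-0.30) missed the threshold, at adjusted p of 0.0547 and 0.0502. The related GTPases Rap2a (-0.12), Rap2b (-0.03) and Rap2c (0.02) were not called. Rapgef3, which encodes the cAMP-activated exchange factor EPAC1, was low at 0.746 to 2.29 CPM with SC-57461A and 1.02 to 2.20 CPM with vehicle, and Rapgef4, which encodes EPAC2, had a count in 2 of the 8 libraries.

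Upstream of the exchange factors, 3 of 16 tested genes fell and 0 rose. Pde4d, a cAMP phosphodiesterase, averaged 31.0 ± 6.45 CPM with SC-57461A and 42.6 ± 6.04 CPM with vehicle (SD, n = 4 each), a log2 fold change of -0.47 (adjusted p = 0.00512). Prkcq, the diacylglycerol-activated protein kinase C-theta, averaged 182 CPM with SC-57461A and 224 CPM with vehicle, with a log2 fold change of -0.29 (adjusted p = 0.0194). Plcg2, a phospholipase C that makes diacylglycerol, changed by -0.41 (adjusted p = 0.0331). The kinase gene Lck (-0.37) and the adenylyl cyclase gene Adcy7 (-0.26) were not called.

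Among other effectors and the MST arm, 3 of 18 fell and 0 rose. They were Arap3, whose protein binds Rap1, at -0.72 (adjusted p = 0.0206), Tiam1, an exchange factor for Rac, at -0.41 (adjusted p = 0.0320), and Vasp, an actin regulator, at -0.29 (adjusted p = 0.0409). Raph1 (lamellipodin), a relative of RIAM, had every SC-57461A library below every vehicle library, at 56.0 to 73.9 CPM with SC-57461A against 77.0 to 92.6 CPM with vehicle, but missed the threshold (log2 fold change -0.36, adjusted p = 0.0518). Evl (-0.66) and Stk4, which encodes the MST1 kinase (-0.13), were not called.

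In integrin activation, 2 of 19 fell and 0 rose. Fyb, which encodes the adaptor ADAP, had 145, 129, 99.6 and 137 CPM in SC-57461A replicates 1 to 4, against 178, 171, 169 and 198 CPM in vehicle replicates 1 to 4, with no overlap, and changed by -0.50 ± 0.09 (SE; adjusted p = 0.0118). Tln1 (talin) averaged 710.2 CPM with SC-57461A and 922 CPM with vehicle, a log2 fold change of -0.39 (adjusted p = 0.0437). Skap1, whose protein binds ADAP, lay higher in every SC-57461A library, at 262 to 326 CPM with SC-57461A against 230 to 255 CPM with vehicle, and missed the threshold (0.25, adjusted p = 0.0638). The LFA-1 genes were not called: Itgal averaged 622 ± 166 CPM with SC-57461A and 697 ± 176 CPM with vehicle, and Itgb2 averaged 308 ± 63.2 CPM with SC-57461A and 319 ± 68.4 CPM with vehicle (SD, n = 4 each). Itga4 (0.32), Lcp2 (-0.17) and Fermt3 (-0.09) were not called either.

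Leaving out 1 library ended several of these calls. When 1 library was left out of the set-adjusted fit, Pde4d and Rasgrp4 were called in all 8 fits. Sipa1l1 was lost without SC-57461A replicate 4 (adjusted p = 0.0580), and Fyb without SC-57461A replicate 4 or vehicle replicate 4 (adjusted p up to 0.0515). Arap3, Tiam1, Prkcq, Plcg2, Vasp and Tln1 were called in 2 to 4 of the 8 fits and lost without SC-57461A replicate 4, vehicle replicate 1, 2 or 4, and for some SC-57461A replicate 1 or 3, with an adjusted p of up to 0.159.

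Besides the Rap1 genes above, the deposited table marks 276 genes with the KEGG Rap1 signaling pathway, of which 184 were tested. The marked genes were taken as they stand and include T cell receptor segments such as Trbc1 and pseudogenes such as Actg-ps1. Counts of this group are therefore not counts of Rap1 signaling genes alone. Some of these are also in the 4 lists, so the counts here and above share genes. Pooled edgeR called 0 of the 184, and 19 had an unadjusted p under 0.05, beside 1008 of all 15095 genes. DESeq2 called 1 of the 184 higher and 4 lower, beside 148 higher and 87 lower among all genes. With library set as a term, 20 fell and 3 rose, beside the 2.5% of all genes called lower and the 2.83% called higher, and the median log2 fold change was -0.05. The count that fell depended on single libraries. It was 4 without SC-57461A replicate 4 or without vehicle replicate 4, 5 without vehicle replicate 1 or without vehicle replicate 2, and 6 without SC-57461A replicate 1, and it was 14 to 21 without any of the other 3. Of the genes that fell, Pnma1 was called in 0 and Plcb2 in 1 of the 8 fits that left out a library. Genes of this group are named here with their values already seen. The 3 that rose were Vegfa, the vascular growth factor (0.83, adjusted p = 0.00435), Kitl, the ligand of the receptor KIT (0.48, adjusted p = 0.00764), and Epha2, an ephrin receptor (0.68, adjusted p = 0.0485), of which Epha2 was called in 1 of the 8 fits that left out a library, with an adjusted p of up to 0.171. Adora2a, an adenosine receptor that raises cAMP, averaged 8.85 ± 1.63 CPM with SC-57461A and 15.5 ± 0.217 CPM with vehicle (SD, n = 4 each; -0.81, adjusted p = 0.00305). Src, a tyrosine kinase, changed by -0.47 (adjusted p = 0.00746). Vegfa, Kitl, Adora2a and Src were called in all 8 fits that left out a library.

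**Figure D4:**
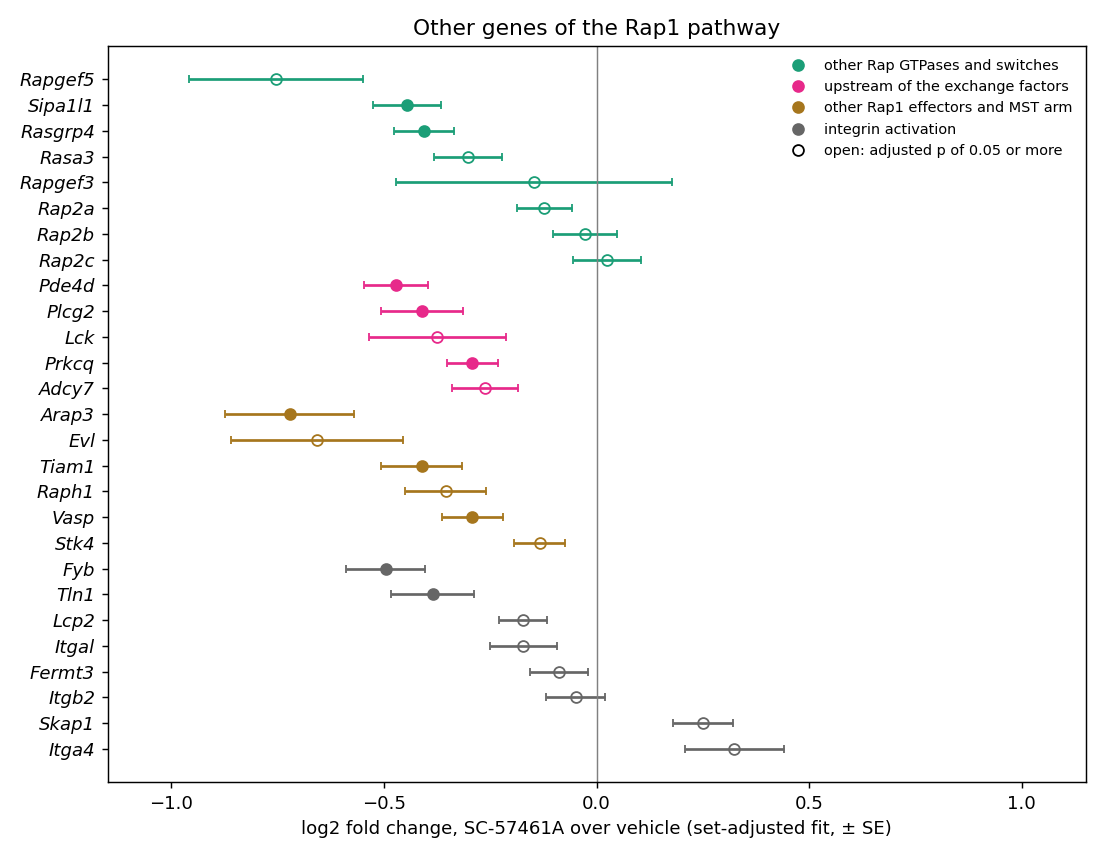
Set-adjusted log2 fold change of SC-57461A over vehicle for the named genes of the 4 further pathway lists, coloured by list, with bars for the standard error and filled points for an adjusted p under 0.05. The 10 filled points all lie below 0, from -0.72 for Arap3 to -0.29 for Prkcq and Vasp. The lists were chosen with earlier results of these data known, so the points are a description.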

How the data were processed

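RNA-seq of total RNA was available for 4 SC-57461A and 4 vehicle libraries as 1 deposited table of 25367 genes. Per the file headers each library has a column of raw counts and a column of FPKM, made by the authors and not pooled. Per the submitters' processing notes, cutadapt 4.7 and FastQC were used and the genome build was mm10; the sources used here name no aligner, counter, strand setting or annotation. Gene identifiers were matched to GENCODE M21 symbols (24998 matched).

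Counts were tested with edgeR 4.0.16 (R 4.3.3): filterByExpr with a minimum count of 10, TMM factors (0.928 to 1.05), glmQLFit and glmQLFTest for treatment alone, with Benjamini-Hochberg adjustment over 15095 genes and a threshold of 0.05. The fit with library set as a term, either set alone, a replicate block, DESeq2 1.42.0 size factors and Wald test, no filter, and limma 3.58.1 on log2(FPKM + 1) or log2(FPKM + 0.1) with a mean FPKM of at least 0.5 or no filter were alternatives, as was leaving out each library; a transcript length offset was added after seeing the data. Scripts were tested on simulated data. CPM are TMM-scaled. Set-centred correlations used genes with a mean CPM of at least 10. The 28 pairs of libraries differed by at least 16.7 in chi-square per degree of freedom, so none was counted as a repeat deposit. Promoter sequences came from RefSeq tables, and near copies were found with BLAST 2.17.0 at 95% identity.

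The members, the gene lists and the library sets were chosen with earlier results of these data known. Named were all 10 members; from each of the 4 pathway lists the 5 genes with the smallest p among those with a mean CPM of at least 1; always Tln1, Fermt3, Itgal, Itgb2, Stk4, Rap2a, Rap2b, Rap2c, Rapgef3 and Rapgef4; and the 3 genes most like Rap1a and Rap1b. Genes named from the KEGG group and 2610206C17Rik lie outside this rule. At these depths the limit that 3 counts set was 0.0422 to 0.0633 CPM, which covers counting error only.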

Additional observations from a re-analysis of the deposited data

Results flagged for a closer look

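In 4 of 76 groups of 4 libraries, 1 library stood apart from the other 3. The groups were those of the Rap1 genes and the genes named from the 4 pathway lists. Chance gives this in about 5% of uniform groups, whereas each group here mixes both library sets. Rap1b had 575 CPM in vehicle replicate 3, against 435 to 446 CPM in the other vehicle libraries. Evl, an actin regulator, had 6.47 CPM in vehicle replicate 2, against 3.36 to 3.82 CPM in the others. Rapgef4 had 0.275 CPM in SC-57461A replicate 2 and 0.0611 CPM in vehicle replicate 2, against 0 in every other library. With the other 3 libraries of a group at 0, any count in 1 library gives this flag.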

How the results depend on the processing

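Over all libraries 41 genes were called higher and 9 lower with SC-57461A. DESeq2 called 148 higher and 87 lower, library set as a term 427 and 377, set A alone 77 and 21, set B alone 86 and 16, and the transcript length offset with library set 579 and 414, while limma on unfiltered FPKM called 24 higher. No source says that replicate numbers pair libraries, and the deviations of same-numbered libraries correlated at -0.59, 0.63, -0.56 and 0.61; a replicate block left 14 higher and 1 lower. Leaving out 1 library, with or without the library set term, gave 25 to 483 higher and 3 to 490 lower. Of the 10 Rap1 genes 0 were called pooled, 2 with library set and 2 with the length offset as well, and 0 to 4 when 1 library was left out. Of the 70 other pathway genes 0 were called pooled, 1 by DESeq2 (lower), 10 with library set (all lower) and 1 in set B alone (higher). The length offset with library set called 14 of the 70, 2 higher and 12 lower. Leaving out 1 library called 0 to 12 of the 70, all lower. The cause of these differences was not tested. The log2 fold changes of the 10 Rap1 genes took 278 values under the alternatives. All stayed within 1 SD of the spread between replicates of a treatment, which includes the gap between library sets; against the smaller SD within treatment and set, 41 values of 8 genes moved further. The sign changed under some alternative for Rap1a (-0.19 to 0.34), Rap1b, Rapgef1, Rapgef6 and Rassf5. Without SC-57461A replicate 3 the pooled value of Rapgef2 was -0.16, and over the alternatives Apbb1ip ranged from -0.39 to -0.08 and Rasgrp2 reached -0.11 at its smallest. Rasgrp2, with 70 to 245 counts, was the member with the least depth.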
